A study of Drosophila melanogaster with 13 samples.

Results

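The strongest 500 Lola.N peaks were the highest-scoring stretches of DNA that both replicates of a Targeted DamID experiment marked in the developing visual system of the fly. They were chosen from replicate N1: peaks that overlapped a peak of replicate N2 by at least 1 bp were ranked by their N1 score, and the first 500 were kept. N1 held 4676 peaks and N2 held 4544, and 3308 N1 peaks overlapped an N2 peak (reproducible peaks), so the members are the top 500 of 3308. The score is the authors' own for each peak, with no stated scale. Because the N1 score and the overlap with N2 chose the members, scores are given below as descriptions, with no test. The RNA of nearby genes, which the ranking did not use, is tested. Members and gene lists were, however, chosen with earlier results of these data known, so the RNA is not an independent check.

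The lola locus encodes a family of BTB zinc finger transcription factors, and its splice forms share the N-terminal BTB domain while differing in the zinc fingers that contact DNA. Lola.N is the form known for keeping neurons of the medulla, a layer of the optic lobe where visual input is processed, in their differentiated state. Neuroblasts, the neural stem cells, divide asymmetrically into another neuroblast and a ganglion mother cell that yields neurons, and neurons that lose lola or nerfin-1, which encodes another zinc finger factor, can turn back into dividing neuroblast-like cells. In Targeted DamID the bacterial Dam methylase, fused to the protein of interest, methylates GATC sites near the DNA it contacts, so a peak marks a stretch between such sites and not a single binding site.

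Both kinds of data came from larvae at the third instar. Lola.N fused to Dam was expressed with ey16F10-GAL4, an eyeless driver, in L3 brains, with peaks called against Dam alone in replicates N1 and N2, while the 2 samples with Dam alone were not analysed here. RNA came from clones sorted by flow cytometry from optic lobes of wandering larvae, with 3 libraries each of the genotypes WT, lola[E76] and nerfin-1[159], every sample being a pool of sorts of different days. The column labels name FRT42D for WT, 42D for lola[E76] and 2A for nerfin-1[159], recombination sites on arms 2R and 3L. Between nerfin-1[159] and WT, and also between the mutants, the mutation and the recombined arm therefore cannot be told apart.

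The RNA libraries held 3465601 to 5200223 counts. Of the mutated genes, nerfin-1 was at 263 to 312.5 CPM (counts scaled to a common library size) in WT libraries and 2.13 to 18.4 CPM in nerfin-1[159] libraries (-4.98, edgeR adjusted p = 4.16e-08), while lola itself spanned 1596 to 1942 CPM for WT and 1729 to 2136 CPM for lola[E76], so its 3′ tags gave no check of the lola[E76] label. The neuronal markers elav, nSyb, brp and Syt1 summed to 3190 to 3748 CPM for WT, to 2575 to 2939 for lola[E76] and to 2462 to 2925 for nerfin-1[159]. Most of each sum was elav, which was called in neither mutant against WT. Of the 4 markers, 0 rose and 1 fell in lola[E76], and 0 rose and 3 fell in nerfin-1[159]. Over all tested genes 2.91% and 6.27% were called lower. The neuroblast markers dpn, wor, ase and mira summed to 47.7 to 138, 236 to 303 and 355 to 429 CPM in WT, lola[E76] and nerfin-1[159] libraries, and all 4 of these genes lie beside members. The 8 Hox genes, used as markers of the nerve cord, summed to at most 10.5 CPM in any library, and 2 of them were at 0 throughout. These sums are no measure of central brain cells. Summed haemocyte and fat body markers, all 6 of them detected, lay at 3.73 to 11.9 CPM for WT, at 23.9 to 53.2 for lola[E76] and at 198 to 261 for nerfin-1[159], and their part in the RNA differences below was not tested. In bulk samples, more cells of a type and more RNA per cell cannot be told apart.

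The members scored 4.37 to 7.80 in N1 with a median of 4.84, and 1.17 to 6.21 in N2 with a median of 3.735. The other 2808 reproducible peaks had medians of 2.59 and 1.97. Of the members, 499 scored higher in N1 than in N2, as did 87.7% of all reproducible peaks. The exception was a peak at Nop60B and ocm on 2R (N1 score 4.59, N2 score 4.63). At the lower edge, ranks 498 to 500 scored 4.37 in N1 and lay beside CG17300, in cpx and in ey, while ranks 501 to 503 scored 4.37, 4.36 and 4.36 and lay in Inx2, CG31777 and SNF4Agamma. In all 6 reproducible peaks shared the score of the lowest member, and 5 of them were kept by the order of chromosome and start.

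A high N1 score went with a high N2 score for most members. Of the 500 members, 383 (76.6%) overlapped a peak among the top 500 of N2, and 385 (77%) of the N2 top 500 overlapped a member. The overlap fell from 98 of the first 100 ranks to 92, 79, 65 and 49 in the following bins of 100 ranks, while the median N2 score went from 4.375 to 3.92, 3.71, 3.60 and 3.37. Across the 500 members N1 and N2 scores correlated at a Pearson r of 0.677 and a Spearman rho of 0.640, as a description over peaks that share both libraries, against 0.852 and 0.822 over all 3308.

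**Figure D1:**
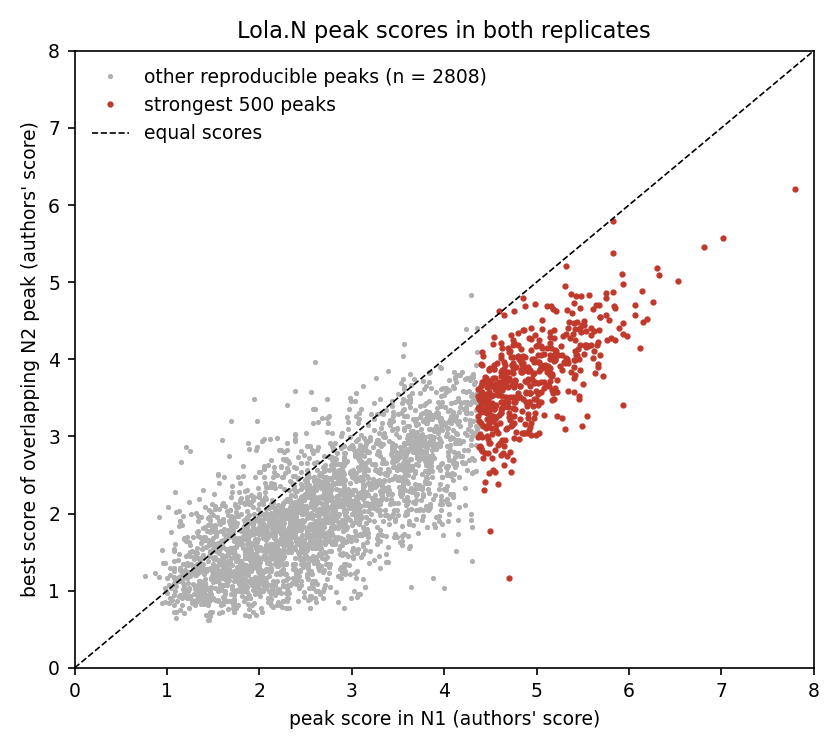
Peak score in N1 (x axis, authors' score) against the best score of the overlapping peak in N2 (y axis, authors' score) for 500 members (red) and 2808 other reproducible peaks (grey); the dashed line marks equal scores. Members lie from 4.37 to 7.80 on the x axis and from 1.17 to 6.21 on the y axis, and 499 of them lie below the line.

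Member ends were also shared more often than those of weaker peaks. Both ends were identical in N1 and N2 for 259 members (51.8%), against 35.2% of all reproducible peaks, and 483 members (96.6%) had at least 50% of their length covered by N2 peaks. The authors' FDR was under 0.001 in both replicates for 490 members (98%), against 70.6% of all reproducible peaks. A minority stood out in N1 only: 17 members ranked below 1000 in N2, and the lowest of them, 3742 bp from nrv3 on 2L, scored 4.70 in N1 and 1.17 in N2. Conversely, 12 N1 peaks that reached the score of the lowest member, up to 5.81, had no N2 peak and were not members.

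The highest member, 3R:19743741-19744560, lay in GluClalpha, which encodes a glutamate-gated chloride channel, and scored 7.80 in N1 and 6.21 in N2, the top score of each list. Second came 2R:10548133-10548920 (7.02 and 5.57), 873 bp from the long non-coding RNA acal and next to lola itself. The following ranks lay in arg, the arginase gene (X:525519-526218, 6.81 and 5.46), in caps, which encodes a leucine-rich repeat protein of synaptic targeting (3L:13254602-13255508, 6.53 and 5.02), and in lncRNA:CR44357 (X:7266061-7266566, 6.33 and 5.09). Rank 6, 2L:8817447-8818739 (6.30 and 5.19), lay 6906 bp from SoxN, a Sox factor of neural progenitors, and rank 7 was the tip of arm 2L (2L:81-4810, 6.26 and 4.74). Rank 8, 2L:15425784-15427427 (6.19 and 4.52), lay 204 bp from wor, the Snail family factor of neuroblasts. Ranks 9 and 10 lay 670 bp from nkd, a Wnt antagonist (3L:19046119-19046833, 6.15 and 4.48), and in Vha68-2, a proton pump subunit (2L:12974051-12975043, 6.14 and 4.89). The build is not named in the files. The last peaks on 3R and Y end at 32078719 and 3507315, within the arm lengths of Release 6, so the Release 6 gene table was used for gene names.

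Members were short and spread over the genome. Their median width was 775.5 bp (69 to 6405), against 792 bp for all reproducible peaks, and they covered 497 kb in all. The widest member, of 6405 bp, lay at the tip of 3L (3L:10537-16941), followed by the tip of 2L and by 3R:12478742-12483185 among the Hsp70 genes. By arm there were 118 members on X, 111 on 3R, 102 on 3L, 96 on 2R, 69 on 2L, 4 on chromosome 4 and 0 of 9 reproducible peaks on Y, which is 12.9% to 16.3% of the reproducible peaks of each arm other than Y.

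Position relative to genes was like that of the weaker peaks. Of the members, 390 (78%) overlapped a gene body, against 79.4% of all reproducible peaks, and 253 (50.6%) lay within 1 kb of a gene end, against 51.5%. The gene table gives no strand, so starts and ends of genes were not separated. No gene lay within 1 kb of 77 members (15.4%), whose median distance to the next gene was 4.055 kb and whose farthest lay 83.1 kb away. Another 196 members (39.2%) had more than 1 gene within 1 kb, so position alone does not single out a gene for them.

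Many members were neighbours. Of the 500, 221 (44.2%) lay within 20 kb of another member and 131 (26.2%) within 5 kb. The largest groups, joined over gaps of up to 20 kb, held 7 members each: 1 spanned 16.6 kb of lola and acal, and the other spanned 44.4 kb of the E(spl) complex of Notch-responsive repressor genes. Groups of 6 lay in pros, at the tip of 3L and around Hsp70Ba, and groups of 5 lay at dpn with pnut and at ttk, a BTB zinc finger repressor. Groups of 4 lay at wor, at stg and at gbb with ken and ytr, with a pair of such groups at Mur2B and br. In the lola group the fusion transgene carries lola coding sequence, and at ey the driver carries an eyeless fragment, so signal from the genome and from the transgenes cannot be told apart there. Reads from chromosome tips and from Hsp70 copies can come from near-identical repeats, so these members are uncertain.

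**Figure D2:**
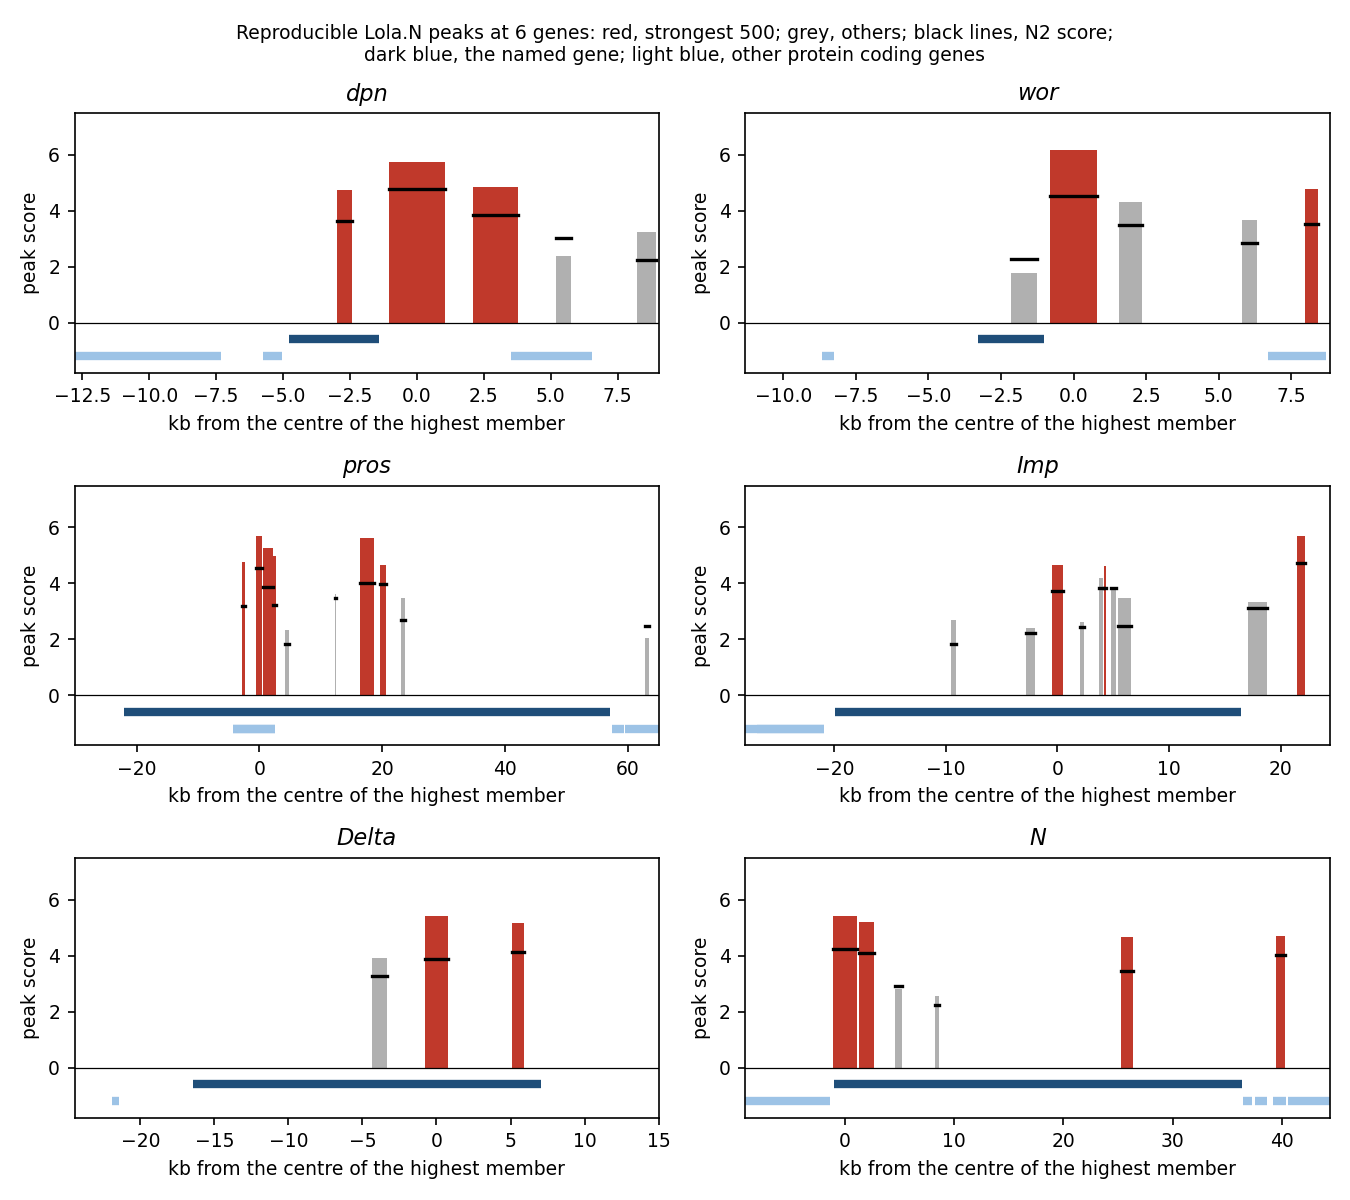
Reproducible Lola.N peaks at 6 genes; x axis, distance in kb from the centre of the highest member within 1 kb of the named gene; y axis, N1 peak score (bars; red, members; grey, other reproducible peaks), with the N2 score as a black line. Gene bodies are drawn below (dark blue, the named gene; light blue, other protein coding genes). The bars show 6 members within 1 kb of pros, 3 of N, 2 each of dpn, Imp and Delta, and 1 of wor.

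In all, 579 genes lay within 1 kb of a member, 469 of them protein coding, which is 3.37% of 13935 protein coding genes (20.8% lay within 1 kb of any reproducible peak). Of the 579, 501 had 1 member, 62 had 2 and the rest 3 to 9. The most members fell to lncRNA:CR44357 and Mur2B with 9 each, pros with 6, br and CG32816 with 5 each, and Cph, KP78a, KP78b and CG1677 with 4 each. KP78a and KP78b share all 4 of their members with pros, and Mur2B shares 5 with br. Genes beside members were long, with a median of 8.076 kb, against 3.86 kb for protein coding genes near any reproducible peak and 2.161 kb for all. The part of gene length in these counts was not tested.

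Gene lists of neural development differed widely in how many genes had a member. Of 10 commitment genes, which act in the passage from ganglion mother cell to neuron, 7 had a member within 1 kb: pros, lola, nab, dap, brat, numb and tap. So had 9 of 14 neuroblast genes (dpn, wor, ase, mira, grh, sna, l(1)sc, cas and pnt), 9 of 16 Notch pathway genes, 7 of 14 temporal timers and ecdysone genes, and 6 of 18 cell cycle genes. At the other end, 0 of 31 dpr and DIP synaptic recognition genes had a member, as had 0 of 13 respiratory chain genes, 0 of 8 Hox genes, 0 of 6 haemocyte and fat body markers and 0 of 5 eye disc markers. Between these lay 4 of 16 lamina and neuroepithelium regulators, 2 of 10 glial genes, 5 of 34 axon guidance and adhesion genes, 2 of 14 medulla temporal factors, 2 of 29 medulla neuron identity factors, 1 of 20 synapse genes, 1 of 25 ion channels and 1 of 20 cytoplasmic ribosomal protein genes. As 3.37% of all protein coding genes had a member, counts of 0 or 1 in lists of these sizes lie near that share. Such counts do not show that members avoid these lists. Counting members and weaker peaks together, 10 of 14 temporal factors and 16 of 29 identity factors had any reproducible peak, against 20.8% of all protein coding genes. The genes chinmo, nerfin-1 and elav also had reproducible peaks but no member.

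**Figure D3:**
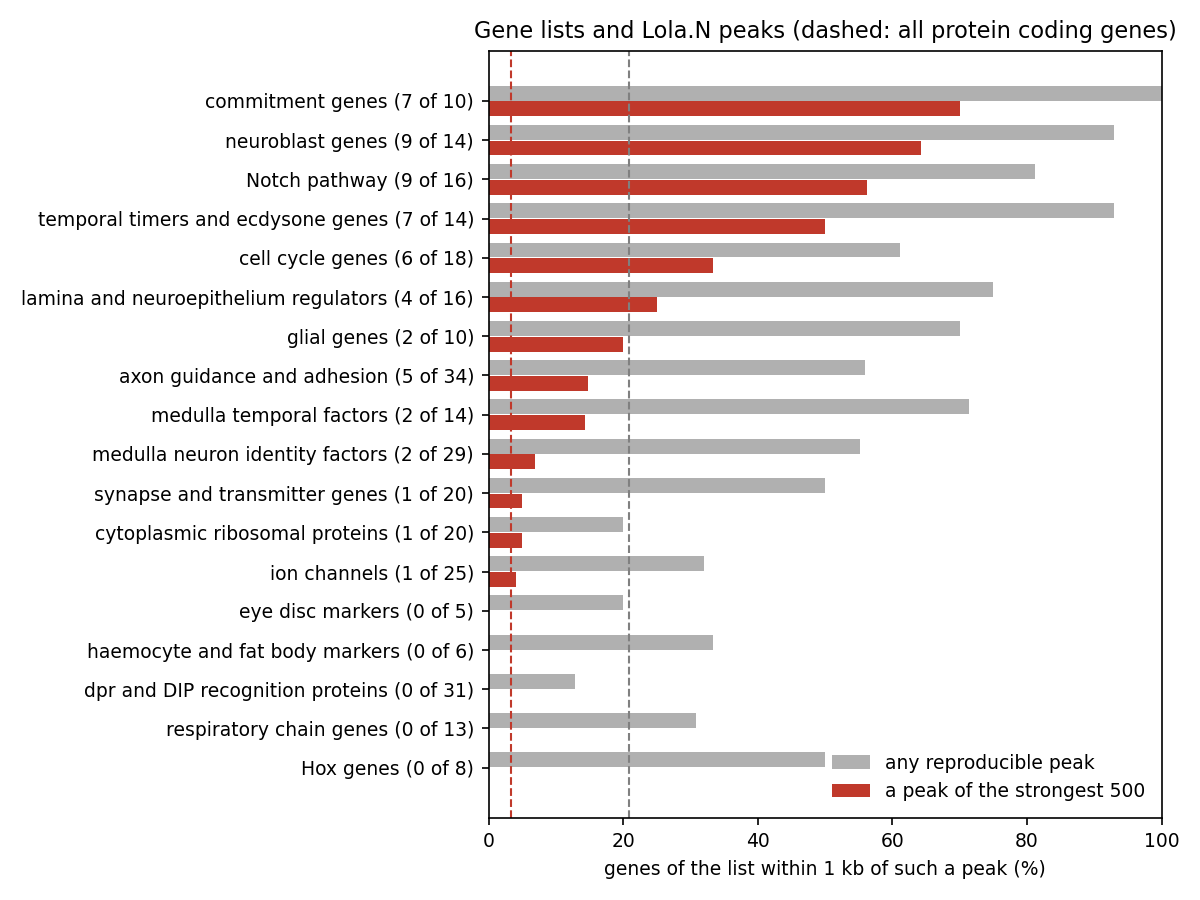
Share of each gene list (x axis, % of matched genes) within 1 kb of a member (red) or of any reproducible peak (grey); counts with a member stand beside each name. Dashed lines give the share of all protein coding genes, 3.37% for members and 20.8% for any reproducible peak. The commitment (70%), neuroblast (64.3%), Notch (56.2%) and timer (50%) lists have the longest red bars.

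RNA was then read for the genes beside members. Of the 579 genes 572 were in the count table, 70 were at 0 in every library, and 419 had enough counts for the test (73.3%, against 42.4% of all table genes with a position). Some of the 419 passed that filter only through the genotype in which they are high, and Ptx1 and Cul6, listed at 0 in all nerfin-1[159] libraries, are such cases. The 419 had a median mean log2 CPM of 5.09, against 4.12 for all 7451 tested genes.

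For lola[E76] clones, 56 of the 419 genes (13.4%) differed from WT by edgeR's quasi-likelihood test at a Benjamini-Hochberg adjusted p under 0.05, against 6.5% of all tested genes. Of these, 41 were higher (9.79%, against 3.58% of all tested genes) and 15 lower (3.58%, against 2.91%), and the median log2 difference of the 419 was 0.10, with -0.00 over all tested genes. The libraries of both genotypes did not overlap for 159 genes (37.9%), against 24.8% of all tested genes. In nerfin-1[159] clones 103 of the 419 (24.6%) differed from WT, against 11.9%, with 73 higher (17.4%, against 5.66%) and 30 lower (7.16%, against 6.27%) and a median of 0.15. Libraries did not overlap for 181 genes (43.2%), against 30.5%. In both comparisons the excess over the background was thus larger among higher genes than among lower ones. No test of the list was made, and both comparisons share the WT libraries.

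The share of called genes followed peak strength and number. Among 58 tested genes with 2 or more members, 16 (27.6%) were called for lola[E76] against WT and 27 (46.6%) for nerfin-1[159] against WT. Among 1722 genes with a weaker reproducible peak only it was 10.3% and 14.6%, and among 5310 with none 4.71% and 10.1%. Expression level moved with this (median mean log2 CPM 5.91 with 2 or more members, 4.51 with a weaker peak only and 3.95 with none), and its part in the result was not tested. The part of gene length was not tested either. Among the 25% of tested genes with the highest mean expression the shares near members were 16.8% in lola[E76] clones, against 11.3% of all tested genes in that range, and 37.7% in nerfin-1[159] clones, against 23.2%. Among the 25% with the lowest expression they were 5.26%, against 4.56%, and 6.58%, against 3.49%. Leaving out arm 2R, which carries lola, left 46 of 334 genes (13.8%, against 6.13%) in lola[E76] clones, and leaving out 3L, which carries nerfin-1, left 82 of 334 (24.6%, against 12%) in nerfin-1[159] clones.

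**Figure D4:**
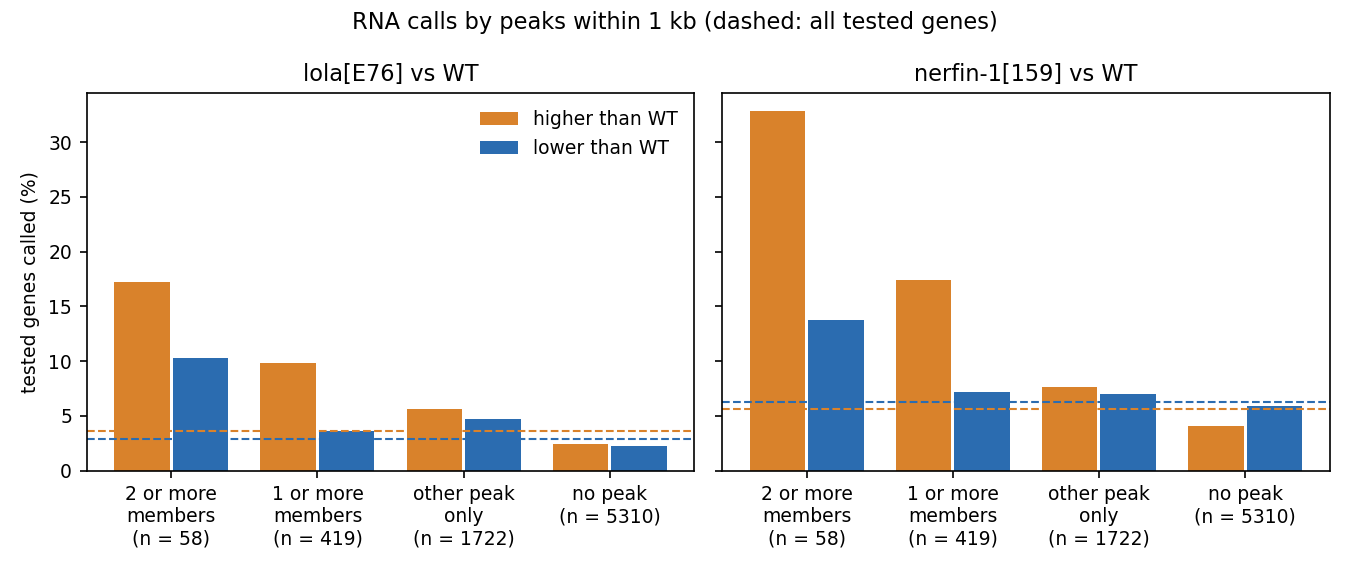
Share of tested genes called higher (orange) or lower (blue) than WT (y axis, %) by the Lola.N peaks within 1 kb, for lola[E76] (left) and nerfin-1[159] clones (right); genes with 2 or more members are also counted among those with 1 or more. Dashed lines give all tested genes. With 1 or more members 9.79% and 17.4% were higher, against 3.58% and 5.66% of all.

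Of 9 tested neuroblast genes with a member, 4 rose in lola[E76] clones (wor, ase, mira and l(1)sc), 5 rose in nerfin-1[159] clones (dpn, wor, ase, mira and cas) and 0 fell in either by edgeR, DESeq2 or limma voom, also at an unadjusted p under 0.05. Over all tested genes 3.58% were called higher for lola[E76] and 5.66% for nerfin-1[159]. Over the whole neuroblast list 4 of 13 tested genes rose in lola[E76] clones and 8 of 13 in nerfin-1[159] clones, so 3 of the 4 without a member rose in the latter. The median log2 difference of the 9 was 1.23 and 1.64, against -0.00 and 0.00 over all tested genes. The gene wor stood at 9.45, 13.5 and 19.5 CPM in the WT libraries, at 41.4, 80.2 and 37.8 CPM in those of lola[E76] and at 93.2, 73.2 and 85.3 CPM in those of nerfin-1[159]. All mutant libraries lay above all WT libraries, with log2 differences of 1.89 ± 0.30 (SE; edgeR adjusted p = 0.0004) and 2.55 ± 0.30 (edgeR adjusted p = 1.14e-05). Beside wor lies the member of rank 8.

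For dpn, the bHLH repressor that marks neuroblasts, the members of ranks 31 and 279 lay 376 bp away and in the gene. It stood at 1.35, 10.4 and 11.6 CPM in the WT libraries, at 14.8, 11.9 and 17.4 CPM in those of lola[E76] and at 45.02, 31.6 and 41.9 CPM in those of nerfin-1[159]. The 3 groups did not overlap, and the rise in nerfin-1[159] passed the test (log2 2.31 ± 0.46, edgeR adjusted p = 0.00186) while the difference in lola[E76] did not (0.88 ± 0.46, edgeR adjusted p = 0.317). WT replicate 1 was the lowest library for dpn, mira and CycE, and also for wor, N, Imp, Syp and E2f1. For Delta and REPTOR it was the highest WT library. Without it the log2 differences of dpn were 1.84 in nerfin-1[159] (edgeR adjusted p = 0.00172) and 0.42 in lola[E76] (edgeR adjusted p = 0.691). Those in lola[E76] were 1.68 for wor (edgeR adjusted p = 0.00307), 0.72 for N (edgeR adjusted p = 0.00988) and 3.51 for Imp (edgeR adjusted p = 1.54e-07).

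The proneural gene ase, with the rank 33 member within 1 kb, had means of 16.4, 44.6 and 51.0 CPM in WT, lola[E76] and nerfin-1[159] libraries. Its log2 differences from WT were 1.45 (edgeR adjusted p = 0.00479) and 1.64 (edgeR adjusted p = 0.000942). The gene mira, whose product carries fate determinants into the ganglion mother cell, had the member of rank 214 and means of 61.1, 145 and 226 CPM (1.23, edgeR adjusted p = 0.0216, and 1.87, edgeR adjusted p = 0.000468). Members with a high rank also lay at neuroblast genes whose RNA did not pass the test, such as pnt, an ETS factor (rank 13, log2 0.06 and -0.58), and sna, a Snail family factor (rank 59, -0.01 and 0.63).

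Of 9 tested Notch pathway genes with a member, 1 rose in lola[E76] clones (N) and 4 rose in nerfin-1[159] clones (N, Delta, neur and E(spl)mgamma-HLH), with 0 called lower in either by edgeR, DESeq2 or limma voom. At an unadjusted p under 0.05, edgeR had 0 lower in either mutant, while DESeq2 and limma voom each had 1 lower in nerfin-1[159]. These counts stand against 3.58% and 5.66% of all tested genes called higher, and over the whole Notch list 1 of 16 genes rose in lola[E76] clones and 5 of 16 in nerfin-1[159] clones. The receptor gene N, with members of ranks 84, 121 and 329 in its body, stood at 152, 198 and 245 CPM in the WT libraries, at 323, 403 and 369 CPM in those of lola[E76] and at 405, 375 and 502 CPM in those of nerfin-1[159]. Both mutants lay wholly above WT (log2 0.88 ± 0.16, edgeR adjusted p = 0.00154, and 1.10 ± 0.16, edgeR adjusted p = 9.25e-05). The ligand gene Delta, with members of ranks 86 and 139, stood at 111, 109 and 96.3 CPM in the WT libraries, at 135, 151 and 122 CPM in those of lola[E76] and at 280, 385 and 373 CPM in those of nerfin-1[159]. It rose in nerfin-1[159] (1.72 ± 0.15, edgeR adjusted p = 3.56e-07), and in lola[E76] libraries it lay above WT without passing the test (0.37 ± 0.15, edgeR adjusted p = 0.162). The ubiquitin ligase gene neur, which acts on Delta and had members of ranks 19 and 208, went from 46.8 CPM in WT to 92.1 in nerfin-1[159] (0.98, edgeR adjusted p = 0.00765) and 51.4 in lola[E76] libraries (0.14, edgeR adjusted p = 0.832). The glycosyltransferase gene fng had the highest member of the list, rank 11, and no called difference.

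Of 7 commitment genes with a member, 0 were called in lola[E76] clones by edgeR or DESeq2 and 1 by limma voom, with 3 at an unadjusted edgeR p under 0.05, while 4 rose (lola, nab, dap and tap) and 1 fell (pros) in nerfin-1[159] clones, against 5.66% higher and 6.27% lower of all tested genes. Of the 3 commitment genes without a member, 1 fell in lola[E76] clones and 2 fell in nerfin-1[159] clones. The gene pros, whose homeodomain protein drives differentiation, had members of ranks 35, 48, 113, 197, 283 and 343 and was among the most abundant RNAs. It stood at 13416, 17302 and 11367 CPM in the WT libraries, at 12645, 8006 and 9014 CPM in those of lola[E76] and at 4805, 6602 and 5240 CPM in those of nerfin-1[159]. The nerfin-1[159] libraries lay below all others (-1.34 ± 0.16, edgeR adjusted p = 1.3e-05), and the lola[E76] libraries overlapped WT (-0.50 ± 0.16, edgeR adjusted p = 0.0639). The bHLH gene tap (ranks 142 and 433) had means of 85.8, 66.6 and 187 CPM and rose in nerfin-1[159] (1.13, edgeR adjusted p = 0.000231). For brat, a translational repressor with the rank 14 member, the differences were -0.10 and -0.10.

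Among 7 temporal timers and ecdysone genes with a member, Imp rose and mamo fell in lola[E76] clones by edgeR. In nerfin-1[159] clones Imp and Syp rose while br and Eip74EF fell. By limma voom 2 rose in lola[E76] clones, and by DESeq2 3 fell in nerfin-1[159] clones. Over all tested genes edgeR called 3.58% higher and 2.91% lower for lola[E76], and 5.66% and 6.27% for nerfin-1[159]. Of the 7 genes of this list without a member, 1 rose and 1 fell in lola[E76] clones, and over the whole list 2 of 14 rose and 3 of 14 fell in nerfin-1[159] clones. The RNA-binding timer Imp, abundant in young neuroblasts and neurons, had members of ranks 337 and 363 in its body, and rank 38 lay beyond its end, 2732 bp from sbr. It stood at 121, 230 and 202 CPM in the WT libraries, at 2563, 2953 and 1893 CPM in those of lola[E76] and at 677, 1531 and 1094 CPM in those of nerfin-1[159]. The 3 groups did not overlap, and log2 differences from WT were 3.74 ± 0.26 (edgeR adjusted p = 4.13e-08) and 2.57 ± 0.25 (edgeR adjusted p = 1.3e-06). Its counterpart Syp, with the rank 16 member, had means of 2416, 2348 and 3988 CPM, with log2 differences of -0.04 (edgeR adjusted p = 0.925) and 0.72 (edgeR adjusted p = 0.00123). The ecdysone-induced ETS gene Eip74EF (rank 143) stood at 8.64, 5.83 and 16.9 CPM in the WT libraries, at 29.0, 26.1 and 18.1 CPM in those of lola[E76] and at 1.13, 1.76 and 2.13 CPM in those of nerfin-1[159]. The nerfin-1[159] libraries were the lowest (-2.62 ± 0.51, edgeR adjusted p = 0.00158, but 0.105 with limma voom). The fall of br, the Broad gene (-0.35), had an edgeR adjusted p of 0.0486, which was 0.197 without WT replicate 1. Mur2B, which is not on this list but shares 5 members with br, rose in lola[E76] clones (1.75 ± 0.36, edgeR adjusted p = 0.00423). In nerfin-1[159] clones Mur2B was not called (-0.17, edgeR adjusted p = 0.864).

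Of 6 cell cycle genes with a member, 0 were called in lola[E76] clones by edgeR or DESeq2 and 1 by limma voom, with 4 at an unadjusted edgeR p under 0.05, and 4 rose in nerfin-1[159] clones (E2f1, CycE, stg and CycA), against 5.66% higher among all tested genes. Of the 12 cell cycle genes without a member, 1 rose in lola[E76] clones and 6 rose in nerfin-1[159] clones, so rising was not limited to genes with a member. The gene of the S phase factor E2f1 had members of ranks 49, 62 and 475 and stood at 1144, 1480 and 1503 CPM in the WT libraries, at 1422, 1583 and 1573 CPM in those of lola[E76] and at 2557, 2412 and 2589 CPM in those of nerfin-1[159]. Only nerfin-1[159] lay apart from WT (0.87 ± 0.11, edgeR adjusted p = 1.57e-05). The gene stg, which encodes the Cdc25 phosphatase of mitotic entry, had the rank 115 member and means of 344, 258 and 682 CPM (0.98 in nerfin-1[159], edgeR adjusted p = 0.000167). CycE, the S phase cyclin (ranks 95 and 421), stood at 20.5, 95.6 and 126 CPM in the WT libraries, at 155, 145 and 148 CPM in those of lola[E76] and at 270, 168 and 225 CPM in those of nerfin-1[159]. Both mutants lay above WT, and the rise in nerfin-1[159] passed the test (1.44 ± 0.36, edgeR adjusted p = 0.0107, 0.99 without WT replicate 1 and an adjusted p of 0.0818 with DESeq2).

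**Figure D5:**
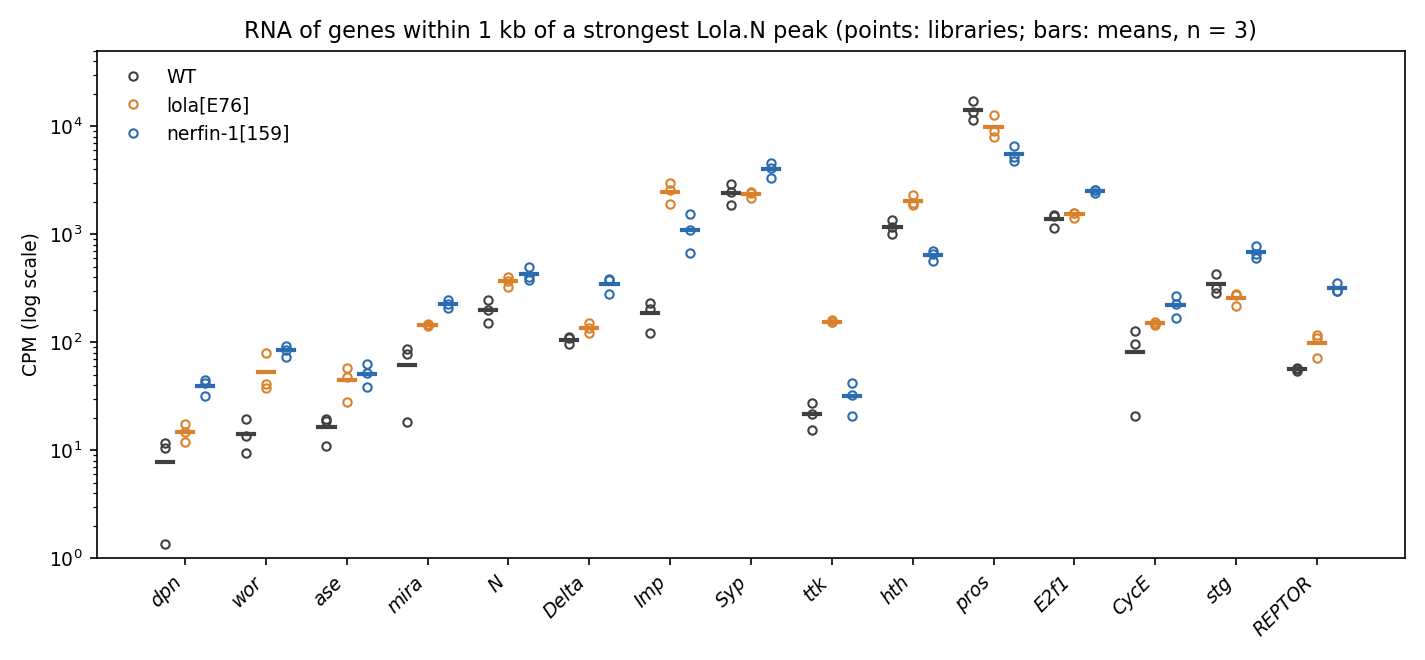
CPM (y axis, log scale) of 15 genes within 1 kb of a member in each library (circles) and the mean of each genotype (bars, n = 3). All mutant circles lie above all WT circles for dpn, wor, ase, mira, N, Delta, Imp, CycE and REPTOR, and pros is lowest in nerfin-1[159].

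The largest rises in lola[E76] clones among genes beside members, at a mean log2 CPM of at least 3, were those of Imp, Myd88, ttk, SPARC, Cdk4 and CG6701. The gene ttk, with members of ranks 157, 317 and 424 within 1 kb, stood at 21.6, 15.4 and 27.5 CPM in the WT libraries, at 153, 152 and 161 CPM in those of lola[E76] and at 20.7, 32.6 and 42.1 CPM in those of nerfin-1[159]. The lola[E76] libraries lay above all others (2.85 ± 0.25, edgeR adjusted p = 7.66e-07), whereas nerfin-1[159] overlapped WT (0.56, edgeR adjusted p = 0.17). Myd88, a Toll pathway adaptor (rank 17), had means of 9.00, 102 and 20.8 CPM (3.48, edgeR adjusted p = 9.66e-07, in lola[E76]). SPARC, a collagen-binding matrix protein gene (rank 403), had means of 13.01, 86.0 and 16.6 CPM (2.72, edgeR adjusted p = 2.45e-05). Cdk4, the partner kinase of cyclin D (ranks 23 and 191), had means of 4.90, 29.2 and 3.13 CPM (2.56, edgeR adjusted p = 0.000368), and an antisense gene overlaps it. CG6701 (rank 56) rose by 2.20.

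The largest falls in lola[E76] clones were those of CG30015, CG14234, Xrp1, CenG1A, CG13920 and svr. CG30015 (ranks 229 and 314) stood at 64.6, 61.0 and 91.2 CPM in the WT libraries, at 15.5, 19.6 and 13.4 CPM in those of lola[E76] and at 74.2, 60.2 and 86.9 CPM in those of nerfin-1[159]. It was lower in lola[E76] libraries alone (-2.16 ± 0.24, edgeR adjusted p = 1.06e-05). The other 5 fell by 0.73 to 1.02 on the log2 scale, among them the stress-response bZIP gene Xrp1 (-1.01, edgeR adjusted p = 0.00053). The falls of CG14234 and svr had edgeR adjusted p-values of 0.182 without WT replicate 2 and 0.106 without WT replicate 1.

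In nerfin-1[159] clones the largest rises beside members were those of trbl, Imp, wor, REPTOR, wdp and dpn. REPTOR, a bZIP factor held back by TOR signalling (ranks 172 and 273), stood at 57.8, 56.2 and 54.4 CPM in the WT libraries, at 117, 109 and 71.5 CPM in those of lola[E76] and at 296, 296 and 354 CPM in those of nerfin-1[159]. The 3 groups did not overlap, and both differences passed the test (0.82 ± 0.17, edgeR adjusted p = 0.00476, and 2.49 ± 0.17, edgeR adjusted p = 2.5e-08). The gene trbl, which encodes the pseudokinase Tribbles (rank 245), had means of 5.33, 8.29 and 33.8 CPM (2.65 in nerfin-1[159], edgeR adjusted p = 5.07e-05). For wdp (rank 375) the 3 nerfin-1[159] libraries spread from 18.1 to 77.0 CPM, and without the highest, replicate 2, the edgeR adjusted p of 0.00655 became 0.0963.

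The largest falls in nerfin-1[159] clones were those of Eip74EF, para, hng3, PsGEF, lncRNA:CR44272 and CG31140. That of lncRNA:CR44272 (-1.62, edgeR adjusted p = 0.0166) had an edgeR adjusted p of 0.124 without WT replicate 1. The voltage-gated sodium channel gene para, the only one of 25 listed ion channels with a member (rank 345), stood at 107, 157 and 126 CPM in the WT libraries, at 80.3, 110 and 86.0 CPM in those of lola[E76] and at 31.2, 39.9 and 16.5 CPM in those of nerfin-1[159]. The nerfin-1[159] libraries lay below all others (-2.16 ± 0.25, edgeR adjusted p = 9.64e-06), while lola[E76] overlapped WT (-0.50, edgeR adjusted p = 0.251). Of the 22 tested ion channels without a member, 14 fell and 0 rose in nerfin-1[159] clones, against 6.27% lower among all tested genes. Falling was thus not limited to the channel with a member. CG31140 (rank 236) had means of 626, 832 and 231 CPM (-1.44, edgeR adjusted p = 1.04e-06).

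The mutants were also compared with each other: 122 of 419 genes (29.1%) differed, against 15.5% of all tested genes, 55 higher in lola[E76] (13.1%, against 8.58%) and 67 lower (16%, against 6.94%). Libraries did not overlap for 174 genes (41.5%), against 30.3%. The gene with the highest member, GluClalpha, stood at 125, 133 and 156 CPM in the WT libraries, at 213, 265 and 263 CPM in those of lola[E76] and at 77.9, 60.7 and 59.97 CPM in those of nerfin-1[159]. It was higher in lola[E76] and lower in nerfin-1[159] than in WT, and between the mutants it differed by 1.90 ± 0.16 (log2, edgeR adjusted p = 1.15e-07). A like pattern held for hth, which encodes the homeodomain factor of the youngest medulla neuroblasts (ranks 82 and 298): its means were 1175, 2043 and 640 CPM, and the mutants differed by 1.68 ± 0.12 (edgeR adjusted p = 2.55e-08). The 6 optic lobe markers summed to 1230 to 1547 CPM for WT, to 2023 to 2614 for lola[E76] and to 739 to 823 for nerfin-1[159]. Most of each sum was hth itself, so the sums are no separate measure of optic lobe cells. Of the 6 markers, 1 rose and 0 fell in lola[E76], and 1 rose and 3 fell in nerfin-1[159]. The part of cell composition in this result was not tested. The pattern of hth also held for kirre, an adhesion gene that shares the rank 84 member with N (96.4, 194 and 58.2 CPM, 1.74 ± 0.17, edgeR adjusted p = 9.05e-07). The other way round, Xrp1 and the innexin gene ogre (ranks 114 and 225) were lower in lola[E76] and higher in nerfin-1[159] than in WT, and differed between the mutants by -1.57 (edgeR adjusted p = 1.91e-06) and -1.02 (edgeR adjusted p = 1.32e-05). The rises of Xrp1 and ogre in nerfin-1[159] had edgeR adjusted p-values of 0.166 without nerfin-1[159] replicate 2 and 0.174 without nerfin-1[159] replicate 3.

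Between the mutants the largest differences beside members toward lola[E76] were those of Eip74EF (3.84 ± 0.51), Cdk4 (3.21), the laminin gene LanB1 (2.87) and hng3 (2.51). Toward nerfin-1[159] they were those of wdp (-2.89), bip1 (-2.69), CG30015 (-2.19) and lncRNA:CR46003 (-2.09). The gene of the eye selector ey, which had members of ranks 186, 262 and 500, had means of 30.1, 25.6 and 68.6 CPM and was higher in nerfin-1[159] (1.18, edgeR adjusted p = 0.00475).

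Several genes with strong members showed no called difference in either mutant. The gene caps, with the fourth-ranked member, had means of 106, 104 and 130 CPM (-0.03 and 0.30), Cph with 4 members had 886, 824 and 678 CPM (-0.10 and -0.39), and sns, an adhesion gene with the rank 47 member, had 62.4, 67.5 and 51.4 CPM (0.12 and -0.28). Of the glial genes, repo and Eaat1 each had a member, with 0 called against WT by edgeR in either mutant, although Eaat1 was higher in nerfin-1[159] at an unadjusted p under 0.05 and by DESeq2 and limma voom. Of the medulla identity genes with a member, Lim3 was higher in lola[E76] (0.74, edgeR adjusted p = 0.0335, 0.168 without WT replicate 3) and pdm3 was lower in nerfin-1[159] (-0.73, edgeR adjusted p = 0.00393).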

How the data were processed

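The authors deposited a table of raw counts per gene and a peak list per DamID replicate with a score and an FDR for each peak. Per the submitters' processing notes, Subread, featureCounts and limma were used, with no version or role given. Per the labels' protocols, RNA libraries were made with QuantSeq, which reads 3′ ends, from pools of 33000 to 105000 cells. Per the file names, peaks were called on GATC fragments against Dam alone at an FDR of 0.01. Neither the genome build nor the strand setting of the counting is stated, so reads of overlapping and antisense genes cannot be told apart.

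Members and gene lists were chosen with earlier results of these data known. A gene was assigned to a member when its body or 1 kb on either side overlapped it, using the Release 6 RefSeq gene table joined by gene ID. Of 303 entries in 18 lists, 297 matched by symbol, 2 by synonym and 4 by another name. Counts were filtered with filterByExpr and scaled by TMM in edgeR 4.0.16 (R 4.3.3), and a quasi-likelihood model, with genotype as its only term, used the 9 libraries together and 7451 genes. Tests were two-sided, with Benjamini-Hochberg adjustment over all tested genes and calls at 0.05. CPM values use TMM-scaled library sizes, except for marker sums, which use total counts. Log2 differences are edgeR's. The SE was derived as the absolute log2 difference divided by the square root of the quasi-likelihood F statistic. The steps were tested on simulated data. Interval steps used Python 3.11.15, numpy 2.4.6, pandas 2.3.3 and matplotlib 3.10.9, and alternatives used DESeq2 1.42.0 and limma 3.58.1. The 33 genes lacking a symbol held up to 0.0085% of a library's counts.

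Replicates are labelled as separate samples, but the labels name no separate animals, so a p-value reflects only how these samples spread, which may be technical. Chi-square divided by its degrees of freedom was 10.3 or more for every pair within a genotype, above sampling noise, and no library was merged with another. Each count of called genes was recomputed under other normalizations, tests, filters, gene windows, peak sets and with each library left out.

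Peaks named were the 10 highest, the 3 widest and 3 on either side of the limit. Genes named were dpn, pros, elav, Imp, Syp, chinmo and the mutated genes, the 8 with most members, the 6 largest called differences each way per mutant (4 between mutants) whose libraries did not overlap, with a mean log2 CPM of 3 or more, and up to 3 per list with most members. Others were chosen after their values were seen. The sequences of members were not analysed here.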

Additional observations from a re-analysis of the deposited data

How the results depend on the processing

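The counts of called genes beside members moved by over 1.5 times where fewer or more genes entered, while the share called moved less. With either gene end within 1 kb of a member in place of the gene body, 35 genes were called in lola[E76] against WT, 55 in nerfin-1[159] against WT and 69 between the mutants, of 265 tested (13.2%, 20.8% and 26%). With the top 250 peaks these were 30, 59 and 62 of 218 (13.8%, 27.1% and 28.4%), and with the top 1000 they were 94, 182 and 205 of 736 (12.8%, 24.7% and 27.9%), against 13.4%, 24.6% and 29.1% for the 500. Changing peaks or windows left the shares of all tested genes at 6.5%, 11.9% and 15.5%. Leaving out a library gave 44 to 59, 69 to 109 and 97 to 124. The lowest values came without WT replicate 1 (10.3%, against 4.03% of all tested genes), WT replicate 2 (16%, against 7.59%) and nerfin-1[159] replicate 3 (22.7%, against 11.3%). The shares over all tested genes were thus lower there too. With a replicate block the counts were 54, 93 and 115 (12.9%, 22.2% and 27.4%, against 5.78%, 11% and 14.5%). Replicate numbers did not pair the samples: deviations of libraries with the same number correlated at -0.056 to 0.023, and only 1 library of 9 was closest to one sharing its number. The DESeq2 test called 81, 112 and 133 genes (19.3%, 26.7% and 31.7%), with 9.03%, 14.1% and 18.4% of all tested genes. Ranking by N2 score gave 52, 97 and 110 of 402 (12.9%, 24.1% and 27.4%). An FDR under 0.001, chosen after seeing the data, gave 56, 103 and 122 of 414.

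The median N2 score was 4.02 for the top 250 and 3.33 for the top 1000, and the share of members overlapping an equally long N2 list was 71.6% and 80.7%. The share near a gene end was 43.4% at 0.5 kb and 78% at 5 kb. Of 180 pairs of named gene and comparison 96 were called, 76 of these whichever library was left out and 74 under every alternative, and 0 called values changed sign. Among calls lost under an alternative, the highest adjusted p-values were those of nerfin-1 in lola[E76] against WT (-1.03, edgeR adjusted p = 0.0342, but 0.38 with DESeq2 and 0.121 without WT replicate 1), of Eip75B between the mutants (0.226 without nerfin-1[159] replicate 3) and of br in nerfin-1[159] against WT (0.197 without WT replicate 1). The loss of nerfin-1 in nerfin-1[159] against WT was called under every alternative.

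The 3 libraries per genotype held 3465601 to 5200223 counts each, and the smallest difference detectable at that depth was not tested. The DamID score has no stated scale or read depth, so no interval can be given for it, and 2 replicates give no test. Peaks were linked to genes by distance alone.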

Other observations

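A group of members lay outside the gene-rich parts of the arms. At the tip of 3L 6 members fell within 19.7 kb, with no gene within 1 kb of any of them. Members near no gene also included 2R:3730891-3731639, 83126 bp from RYa, with scores of 4.97 in N1 and 3.82 in N2, and X:58533-59797, 56353 bp from the nearest gene, with 4.85 and 4.80. The Hsp70Ba group of 6 members had N2 scores of 3.70 to 4.02. These are values of the deposited peak lists, and whether reads from repeats contribute was not tested.

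Some members had neighbours in named pathways that were not on a gene list. The gene baz, which encodes the apical polarity protein Bazooka of dividing neuroblasts, had the rank 248 member, which xmas shares, and stood at 82.7 ± 18.6 CPM (SD, n = 3) in WT, 190 CPM in lola[E76] and 195 CPM in nerfin-1[159] libraries. Its log2 differences were 1.20 (edgeR adjusted p = 0.000305) and 1.23 (edgeR adjusted p = 0.000125). The BMP ligand gene gbb (rank 365) had means of 7.84, 35.1 and 20.9 CPM, with 2.13 (edgeR adjusted p = 0.00171) and 1.39 (edgeR adjusted p = 0.0247). The gene spdo, which encodes the Notch trafficking protein Sanpodo (rank 70), had means of 53.8, 68.3 and 127 CPM, and rose in nerfin-1[159] by 1.24 (edgeR adjusted p = 3.91e-05). The TNF gene egr (best rank 141) had means of 26.9, 38.8 and 72.8 CPM and rose in nerfin-1[159] by 1.43 (edgeR adjusted p = 0.000468). These genes were chosen after their values were seen.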
